A study of Sus scrofa with 12 samples.

Results

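MicroRNA levels in the testis of 120-day-old Landrace (LC) boars were compared with those of 120-day-old Hezuo (HZ) boars. The 6 small RNA libraries of these boars were taken by breed and age from the 12 libraries of the study, which also hold 3 libraries of each breed at 30 days of age. Group Hb holds the 3 HZ libraries and group Lb the 3 LC libraries of 120 days, and Ha and La are the matching groups of 30 days. The boars came from a single breeding company and their testes were taken by castration. The labels name no treatment or allele, so the groups are set apart by breed and age alone. Of the 1452 mature miRNAs listed, 1444 had at least 1 count in the 6 libraries and were compared. They comprised 353 of 353 pig miRBase entries (named ssc-), 761 of 767 entries matched to miRNAs of other species (named with the suffix -x, -y or -z), and 330 of 332 predicted entries (named m0001 and on, without the prefix that marks predictions in the deposited names). RNA was described as coming from pooled samples, so whether a library holds the RNA of 1 boar is not given in the sources used here. The p-values measure the spread between libraries only. Both breeds were sampled at the same age in days, so breed and any difference in the stage of testis development cannot be told apart.

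MiRNAs are short RNAs that guide Argonaute proteins to messenger RNAs, mainly through pairing of the seed near the 5′ end, and so lower the output of their targets. In the testis they are made by germ cells as well as by Sertoli, Leydig, peritubular and vascular cells, and the makeup of the tissue shifts as the seminiferous tubules mature. The miR-34/miR-449 family is known from meiotic and haploid germ cells, miR-202 from the gonad, and miR-143/miR-145 from smooth muscle and peritubular cells.

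The mature sequences of the miRNAs on which the comparison turns are given first, 5′ to 3′ as listed by the authors, with bases 2 to 8, the seed, in capitals. The first set holds the 8 miRNAs at 10 TPM or more (TPM, a count scaled to a fixed library total) that were higher in LC after adjustment, and is shown because only miR-199b-5p and miR-199-x among them share a seed.
ssc-miR-4331-5p: tGGCGTAGatcacagacacagc
ssc-miR-365-3p: tAATGCCCctaaaaatccttat
ssc-miR-1249: aCGCCCTTcccccccttcttca
miR-409-y: gAATGTTGctcggtgaacccct
ssc-miR-137: tTATTGCTtaagaatacgcgtag
ssc-miR-133a-3p: tTGGTCCCcttcaaccagctg
ssc-miR-199b-5p: cCCAGTGTttagactatctgtt
miR-199-x: cCCAGTGTttagactatctgttct

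The second set holds the miRNAs at 10 TPM or more with the largest adjusted falls from HZ to LC outside the miR-29 and miR-101 groups, shown because 5 of the 9 are predicted sequences and 2 are almost wholly G and C.
m0021-3p: tCAGCAATtcttggttctcatt
ssc-miR-31: aGGCAAGAtgctggcatagctg
ssc-miR-184: tGGACGGAgaactgataagggt
miR-2137-z: gCCGGCGGgagccccgggga
m0010-5p: gGAGAAGCtactctggcac
ssc-miR-4332: cACGGCCGccgccgggcgcc
m0025-5p: gAGATTCTgattggtacctg
m0007-5p: cAGGTCCAagttcaacact
m0009-3p: cCAGTCAGaattcaaaacc

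The third set shows how entries of the miR-29 and miR-101 groups differ from each other only at the ends or at a few inner bases.
ssc-miR-29a-3p: cTAGCACCatctgaaatcggtta
ssc-miR-29b: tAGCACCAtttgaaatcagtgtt
ssc-miR-29c: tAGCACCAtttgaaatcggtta
miR-29-y: tAGCACCAtttgaaatcggaa
ssc-miR-101: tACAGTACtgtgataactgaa
miR-101-y: tACAGTACtgtgataactgact

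ssc-miR-29a-3p is listed with an extra base at its 5′ end, so that its bases 2 to 8 are not the seed of the other family members. miR-29-y and miR-101-y lie within 2 edits of ssc-miR-29c and ssc-miR-101, and the counting could split reads between such neighbours.

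The 3 HZ libraries differed from each other far more than the 3 LC libraries did. The listed counts were 6520197, 8174384 and 6749792 in Hb1, Hb2 and Hb3, and ranged from 8329156 to 13124886 in Lb, so that 3 counts correspond to 0.199 to 0.404 TPM. Over the miRNAs with at least 10 TPM on average in these libraries, the median range of log2 TPM within a group was 1.06 in Hb and 0.33 in Lb, and 235 miRNAs spanned more than 1 log2 unit in Hb against 45 in Lb. Hb2 was the lowest HZ library for 340 of these miRNAs (75.4%), and Hb1 the highest for 301. The scaling factor (TMM) of Hb2 was 0.598, against 0.979 to 1.21 in the other 5 libraries. The ranges and ranks above are of TPM without this scaling. Much of the spread between Hb1 (factor 1.21) and Hb2 is therefore a shift of the whole library, which the fit removes. The biological coefficient of variation, taken after TMM scaling, was 39.7% in Hb, 22.4% in Lb, 19.1% in Ha and 10.02% in La. Values are therefore given for each HZ library. The libraries without which the leading adjusted calls were lost are named after those calls.

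**Figure D1:**
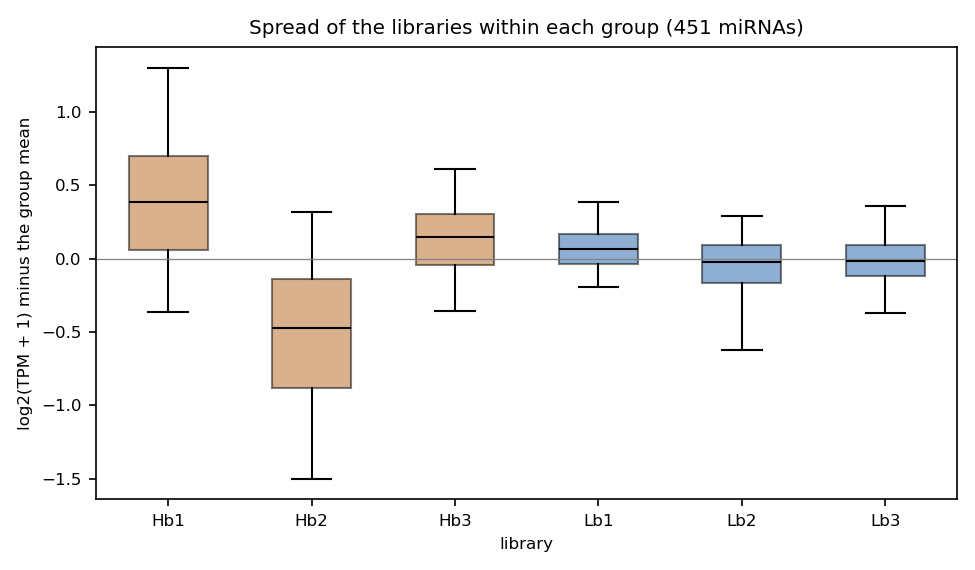
Box plots of the deviation of each miRNA from the mean of its group, as log2(TPM + 1), for each of the 6 libraries over the miRNAs at 10 TPM or more (box, quartiles; line, median; whiskers, 5th to 95th percentile). The medians are 0.39 in Hb1, −0.47 in Hb2 and 0.15 in Hb3, and lie between −0.02 and 0.06 in the Lb libraries. The TPM carry no TMM scaling.

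A total of 243 miRNAs, 16.8% of the 1444 tested, differed between the breeds by the rule of the study, which asks for more than 1 log2 unit in either direction and p under 0.05 with no adjustment. Of these, 122 (8.45%) were higher and 121 (8.38%) lower in LC. After Benjamini-Hochberg adjustment in edgeR's quasi-likelihood test, 16 (1.11%) were higher and 31 (2.15%) lower, 47 (3.25%) in all. Some entries have the same sequence and are counted more than once here. With identical sequences merged, 113 were called higher and 119 lower among 1402 tested, and 41 passed adjustment. The even split depended on the scaling. When libraries were scaled by their total alone, 145 were higher and 75 lower, the share of higher calls went from 50.2% to 65.9%, and the median of all miRNAs moved up by 0.269 log2 units. Fold changes of the mean TPM, set beside the unchanged p-values of the TMM fit, gave 140 higher and 97 lower. Log2 fold changes below are LC over HZ after TMM scaling, by which the median over all miRNAs was 0.06. The adjusted counts also turned on single libraries. Without Hb3 they were 4 higher and 8 lower, without Lb1 6 and 8, without Lb2 15 and 14, and without Hb1 62 and 86.

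**Figure D2:**
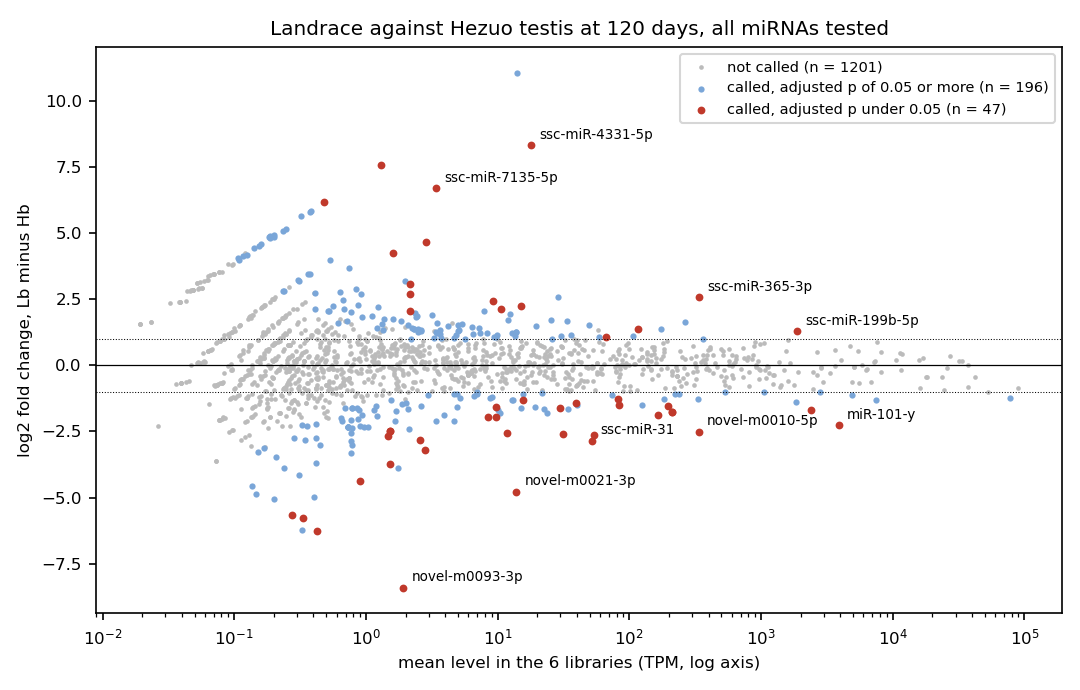
Log2 fold change, LC over HZ at 120 days, against the mean TPM of the 6 libraries (log axis) for all 1444 miRNAs; each point is a miRNA. The 47 adjusted calls lie on both sides of 0 and at all levels, beside 196 called by the unadjusted rule alone and 1201 not called.

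Calls were spread over all 3 classes. The rule called 15.01% of the pig miRBase entries, 15.4% of the entries matched to other species and 22.12% of the predicted entries. Among the 211 miRNAs that averaged 100 TPM or more, 7 were called higher and 19 lower. Of those at 10 TPM or more in Hb or Lb, 35 of 476 (7.35%) were higher and 47 (9.87%) lower. Among the 343 between 1 and 10 TPM the order was the opposite, with 54 higher and 36 lower. The TPM of the breeds did not overlap for 268 miRNAs higher in LC (18.6%) and 115 lower (7.96%). These values carry no TMM scaling. By the ratio of mean TPM the median log2 fold change over all miRNAs was 0.29, against 0.06 after TMM scaling. As bulk tissue was measured, fewer cells of a type and less RNA per cell cannot be told apart in any of these differences.

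The difference with the smallest p-value was that of ssc-miR-4331-5p, a miRNA known from pig. It had 0.269 TPM in Hb1 and no count in Hb2 and Hb3, against 35.3, 38.5 and 33.9 TPM in Lb1, Lb2 and Lb3. HZ testis thus held 2 counts in all against 1281 in LC, a depth-corrected ratio of 435 (95% counting interval 120 to 3596, which covers counting error only; log2 fold change 8.31, SE 0.62, adjusted p = 8.05e-06). The other arm of the same hairpin was present in both breeds. ssc-miR-4331-3p had 6.06, 4.36 and 3.99 TPM in Hb and 3.44, 1.89 and 3.74 TPM in Lb, a log2 fold change of −0.98 (adjusted p = 0.199). The RefSeq gene MIR4331 lies at chr6:65468483-65468562 (Sscrofa11.1), outside other genes. The same contrast stood at 30 days, with no count in the 3 Ha libraries and 37.8, 25.6 and 27.0 TPM in La (adjusted p = 1.74e-08). ssc-miR-7135-5p, singled out after its values were seen as it stayed under 10 TPM, was likewise nearly absent from HZ. A single count in Hb2 (0.109 TPM) faced 7.02, 5.56 and 7.75 TPM in Lb (246 counts; ratio 167, 95% counting interval 29.7 to 6626; adjusted p = 0.000251). Its 3p arm was present in HZ at 1.35, 1.64 and 0.640 TPM and in LC at 5.30, 3.67 and 3.20 TPM. Unlike ssc-miR-4331-3p, this arm was called higher in LC by the unadjusted rule, at both ages.

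ssc-miR-365-3p, a miRNA studied in brown fat, had 224, 8.07 and 61.1 TPM in Hb and 727, 546 and 467 TPM in Lb. The Lb libraries all stood above the Hb libraries, but the HZ values were spread over more than an order of magnitude with Hb2 at the bottom. The log2 fold change was 2.57 (SE 0.64, adjusted p = 0.0477), and 2.06 without Hb2 (adjusted p = 0.0364). The adjusted call was lost without Hb3 (adjusted p = 0.209 in edgeR) and without Lb1 (0.126). Its related entry miR-365-y, within 2 edits, was also called higher. RefSeq places MIR365 genes at chr12:43324725-43324804 and, within the lncRNA LOC110259927, at chr3:28908137-28908216.

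ssc-miR-137, best known from neurons, had 4.58, 2.83 and 2.45 TPM in Hb and 15.2, 21.2 and 17.5 TPM in Lb. Both groups were tight and far apart, and the log2 fold change was 2.15 (SE 0.37, adjusted p = 0.0086). ssc-miR-1249, whose gene lies within KIAA0930 at chr5:4187912-4187993, had 5.25, 0.109 and 2.83 TPM in Hb and 17.5, 17.4 and 12.4 TPM in Lb (log2 fold change 2.45, SE 0.60, adjusted p = 0.0462). Its groups did not overlap, with Hb2 again the lowest library.

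ssc-miR-133a-3p, a miRNA of striated muscle, had 72.2, 22.14 and 79.2 TPM in Hb and 179.8, 153.01 and 187 TPM in Lb (log2 fold change 1.39, SE 0.32, adjusted p = 0.0365). ssc-miR-1, another miRNA of striated muscle, with a gene near a MIR133A gene on chromosome 17, had 386, 347 and 521 TPM in Hb and 485, 479 and 571 TPM in Lb (log2 fold change −0.05), and ssc-miR-206 was called lower in LC (−1.48, adjusted p = 0.0957). The muscle-enriched miRNAs thus did not move as one.

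ssc-miR-199b-5p, a miRNA of mesenchymal cells encoded within DNM1 at chr1:268691520-268691593, had 1616, 519 and 814 TPM in Hb and 3046, 2776 and 2421 TPM in Lb. All LC libraries exceeded all HZ libraries, with a log2 fold change of 1.28 (SE 0.27, adjusted p = 0.0297). miR-199-x, which carries its sequence with 2 more bases, followed at 54.4, 23.4 and 36.4 against 100.03, 101.7 and 86.1 TPM (1.09, SE 0.26, adjusted p = 0.0429). The entries of the other arm and of miR-199a differed less. ssc-miR-199b-3p, whose counts nearly equal those of ssc-miR-199a-3p, had a log2 fold change of −0.08, and ssc-miR-199a-5p, the most abundant member, of 0.15. miR-409-y, a miRNA of the imprinted DLK1-DIO3 region, had 10.2, 1.09 and 3.60 TPM in Hb and 33.0, 12.2 and 30.9 TPM in Lb (log2 fold change 2.26, SE 0.53, adjusted p = 0.0418).

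Among the miRNAs lower in LC, the predicted m0021-3p had the largest fall at 10 TPM or more. It had 33.1, 21.7 and 24.7 TPM in Hb and 1.06, 1.36 and 1.16 TPM in Lb, and was 27.5-fold lower in LC (log2 fold change −4.78, SE 0.38, adjusted p = 8.05e-06). Its hairpin was placed at chrX:74286653-74286713 on the plus strand, outside annotated genes. A second predicted hairpin on the same strand within 10 kb, m0093-3p at chrX:74287583-74287641, had 5.66, 2.40 and 3.48 TPM in Hb and no count in Lb. With 91 counts against 0, it was at least 14.8-fold lower in LC, taking 3 counts per library as the floor (adjusted p = 0.000251). Both were also called lower in LC at 30 days, m0021-3p with a log2 fold change of −2.20 and m0093-3p with 0.553, 0.913 and 0.278 TPM in Ha and no count in La (adjusted p = 0.014), for which no fold is given.

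ssc-miR-31, a regulator of cell migration and differentiation encoded outside other genes at chr1:201198732-201198809, had 116, 58.2 and 96.0 TPM in Hb and 12.0, 10.6 and 22.0 TPM in Lb. The lowest HZ library stood above the highest LC library, and the miRNA was 7.21-fold lower in LC (log2 fold change −2.85, SE 0.35, adjusted p = 0.00038). At 30 days its log2 fold change was −2.72 (adjusted p = 3.42e-07), and miR-31-x, which shares its seed, was also lower at both ages.

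A group of predicted sequences on chromosome 15 followed, all on the minus strand and outside annotated genes. m0010-5p (chr15:59938143-59938198) had 702, 373 and 597 TPM in Hb and 109, 98.4 and 146 TPM in Lb (log2 fold change −2.51, SE 0.27, adjusted p = 0.000213). m0007-5p (chr15:59938669-59938711) had 317, 178 and 252 TPM in Hb and 109, 56.1 and 82.5 TPM in Lb (−1.88, SE 0.29, adjusted p = 0.00409). m0009-3p (chr15:59938317-59938372) had 381, 288 and 255 TPM in Hb and 132.995, 90.1 and 121 TPM in Lb (−1.77, SE 0.30, adjusted p = 0.00687). The HZ and LC libraries did not overlap for any of them. They were nearly absent from both breeds at 30 days. Their mean TPM in Ha and La was 0.48 and 0.22 for m0010-5p, 0.29 and 0.16 for m0007-5p, and 0.25 and 0.18 for m0009-3p. m0008-3p, assigned to chr15:59887686-59887741, has the sequence and the counts of m0009-3p, so the 2 entries are 1 measurement. A further predicted entry, m0025-5p, lies within the lncRNA LOC106504386 (chr7:30091654-30091705, minus strand). It had 21.01, 14.3 and 8.62 TPM in Hb and 4.83, 3.78 and 5.79 TPM in Lb (−1.94, SE 0.41, adjusted p = 0.0297), and no count in any library of 30 days. m0018-3p, within 10 kb of it on the other strand, had 72.2, 17.99 and 52.3 TPM in Hb and 49.6, 49.5 and 49.9 TPM in Lb (−0.10).

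ssc-miR-184, a conserved miRNA known from germline and epithelia, had 151, 10.2 and 117 TPM in Hb and 15.7, 13.3 and 18.5 TPM in Lb. In TPM, which carry no TMM scaling, Hb1 and Hb3 stood far above LC and Hb2 below it, so the groups overlapped. The log2 fold change after TMM scaling, with a factor of 0.598 for Hb2, was −2.62 (SE 0.56, adjusted p = 0.0297). The GC-rich entries miR-2137-z (90% GC) and ssc-miR-4332 (95% GC) were lower in LC by 2.57 and 1.95 log2 units. miR-2137-z had 26.0, 8.72 and 24.8 TPM in Hb and 5.16, 1.99 and 4.27 TPM in Lb (log2 fold change −2.57, SE 0.42, adjusted p = 0.00613). ssc-miR-4332 had 14.7, 7.74 and 16.6 TPM in Hb and 4.44, 1.99 and 5.61 TPM in Lb (−1.95, SE 0.42, adjusted p = 0.0297).

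The last of the leading falls was that of miR-101-y, of a family known to target the chromatin enzyme EZH2. It had 2114, 9749.7 and 5937 TPM in Hb and 2073, 1488 and 1954 TPM in Lb (log2 fold change −2.27, SE 0.57, adjusted p = 0.0478). Hb1 was close to the LC libraries, and the log2 fold change was −1.23 without Hb2 (adjusted p = 0.139). The pig entry ssc-miR-101 had 2784, 3544 and 3848 TPM in Hb and 2252, 2094 and 2373 TPM in Lb (−1.01, adjusted p = 0.0944).

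All 20 leading miRNAs (8 higher, 12 lower) kept their direction and the unadjusted call in every alternative in which they could be fitted. The adjusted call was kept whichever of the 6 libraries was left out by 7 of them, namely ssc-miR-4331-5p, m0021-3p, ssc-miR-31, m0010-5p, m0007-5p and the paired entries m0009-3p and m0008-3p. Of all 47 adjusted calls, 9 kept it in the same way. With library-size scaling, ssc-miR-4331-5p, ssc-miR-137, m0021-3p, ssc-miR-31 and m0010-5p kept the adjusted call and the rest of the 20 lost it. With filterByExpr and with robust estimation ssc-miR-365-3p, ssc-miR-1249, ssc-miR-184, miR-29-y and miR-101-y lost it as well, as did miR-409-y and ssc-miR-133a-3p with filterByExpr and miR-199-x with RLE scaling. With identical sequences merged, ssc-miR-365-3p, ssc-miR-1249 and miR-101-y lost it too. The other 13 of the 20 leading miRNAs lost the adjusted call without at least 1 library. This was Hb3 for 12 of them, Lb1 for 11, Lb2 for 8, Hb2 for 4 and Lb3 for 2. Their highest adjusted p in edgeR when a library was left out lay between 0.0618 and 0.209. ssc-miR-137 and miR-2137-z lost it only without Hb3, and ssc-miR-365-3p without Hb3 or Lb1. ssc-miR-1249, ssc-miR-199b-5p, ssc-miR-184 and ssc-miR-4332 lost it without Hb3, Lb1 or Lb2. miR-409-y and miR-29-y lost it without Hb2, Hb3 or Lb1, and m0025-5p without Hb2, Lb1 or Lb2. ssc-miR-133a-3p and miR-199-x lost it without Hb3, Lb1, Lb2 or Lb3, and miR-101-y without Hb2, Hb3, Lb1 or Lb2.

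**Figure D3:**
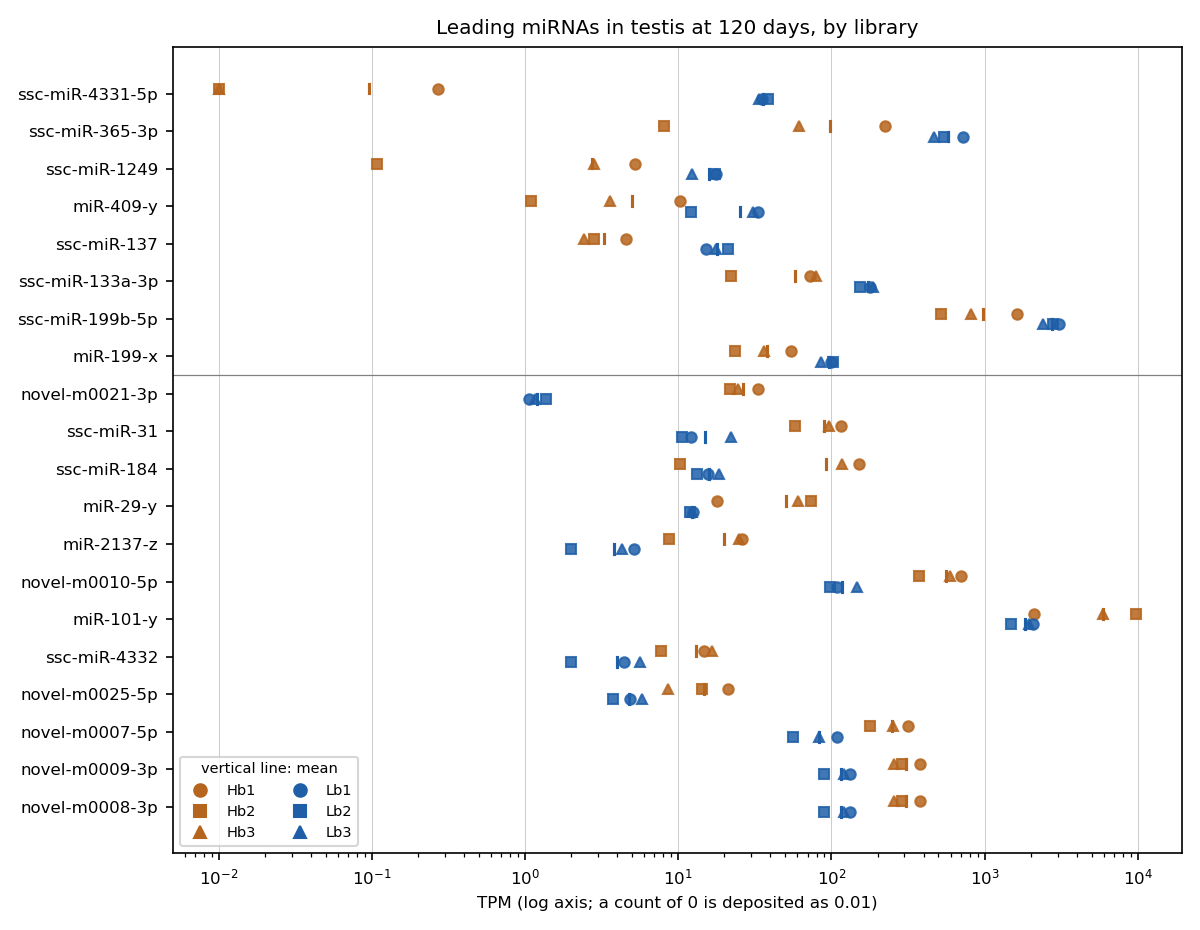
TPM (log axis) of the 20 leading miRNAs in each of the 6 libraries; points are libraries, vertical ticks are group means, and the grey line separates the 8 higher in LC from the 12 lower. The Lb points of miR-409-y run from 12.2 to 33.0 TPM, and Hb2 lies apart from Hb1 and Hb3 for ssc-miR-365-3p, ssc-miR-184 and ssc-miR-1249.

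The miRNAs were next grouped by family, cluster and known cell type, and each group is described by its calls under the rule of the study, to be read against 8.45% called higher and 8.38% called lower over all miRNAs. The miR-29 family, which targets collagen and DNA methyltransferase messages, was lower in LC. Of 7 members tested, 4 were called lower and none higher, 3 after adjustment, with a median log2 fold change of −1.28. ssc-miR-29a-3p had 2368, 3614 and 4261 TPM in Hb and 1476, 1293 and 1478 TPM in Lb (log2 fold change −1.69, SE 0.36, adjusted p = 0.0297). ssc-miR-29b had 88.1, 121 and 132.6 TPM in Hb and 59.9, 47.1 and 53.2 TPM in Lb (−1.51, SE 0.35, adjusted p = 0.0392). Neither overlapped between the breeds. Without Hb3 their adjusted p was 0.140 and 0.155, without Lb1 0.126 for both and without Lb2 0.0653 and 0.0795, and ssc-miR-29b also lost the adjusted call without Hb2 (log2 fold change −1.11, adjusted p = 0.0662). ssc-miR-29c had 154, 285 and 268 TPM in Hb and 147, 106 and 146 TPM in Lb (−1.28, adjusted p = 0.0878). miR-29-y had 17.9, 73.3 and 60.5 TPM in Hb and 12.4, 12.0 and 12.4 TPM in Lb (−2.58, SE 0.55, adjusted p = 0.0297). Hb1 was the HZ library nearest to LC in all 4. Their genes lie in pairs, MIR29A and MIR29B-1 on chromosome 18 (chr18:18040032-18040117 and chr18:18039629-18039709) and MIR29B-2 and MIR29C on chromosome 9 (chr9:135019079-135019162 and chr9:135019638-135019725). The family sum was 2666, 4115 and 4758 TPM in Hb and 1739, 1498 and 1730 TPM in Lb. Without Hb2, 3 members were still called lower and the median was −0.74. Under library-size scaling 3 were called lower (median −0.81), but ssc-miR-29a-3p, ssc-miR-29b and miR-29-y lost the adjusted call. At 30 days the median was −0.18 and no member was called. The change of the breed difference with age was tested and is given with the other interactions.

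More abundant families differed by smaller folds. ssc-miR-26a, the most abundant member of the miR-26 family and a known regulator of growth and EZH2, had 80476, 119640 and 94068 TPM in Hb and 54793, 62326 and 55395 TPM in Lb (−1.22, SE 0.38, adjusted p = 0.0881). All 6 members had negative log2 fold changes (median −0.86), 2 were called lower and none higher, and the groups' sums did not overlap (82811 to 122146 against 56734 to 64444 TPM). No member was called without Hb2 or under library-size scaling, where the median was −0.44. Of the 17 members of the miR-23/miR-24/miR-27 clusters, 2 were called lower, ssc-miR-24-3p (8499, 12344 and 7978 against 5741, 4830 and 5526 TPM, −1.30, adjusted p = 0.0788) and miR-27-z (−1.32, adjusted p = 0.0657), with a median of −0.52. Before TMM scaling their sums were close in HZ, from 61642 to 64156 TPM, and lower in LC, from 43238 to 47329 TPM. The scaling factor was 1.21 in Hb1 and 0.598 in Hb2, so the HZ sums were not close on the scale of the fold changes. Neither call held without Hb2 or under library-size scaling, where 1 member was called higher and the median was −0.18. ssc-miR-27b-3p, the most abundant of them, had a log2 fold change of −0.83 (adjusted p = 0.145). In the miR-143/miR-145 cluster of smooth muscle, ssc-miR-145-3p (−1.39) and miR-145-x (−1.66) were called lower among 9 members (median −0.56). The most abundant, ssc-miR-143-3p, had 45480.5, 68402 and 74315 TPM in Hb and 44465, 37965 and 44645 TPM in Lb (−0.99, adjusted p = 0.139). Without Hb2, none was called and the median was 0.07. Under library-size scaling 1 was called lower and the median was −0.17.

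In the DLK1-DIO3 region, a large imprinted cluster expressed from the maternal allele, all calls were toward LC. Of 63 members tested, 17 were called higher in LC and none lower, 46 did not pass, and 59 had a positive log2 fold change (median 1.002). The counts were low. The sum over the cluster was 497, 222.7 and 349 TPM in Hb and 890, 347 and 868 TPM in Lb, so that Lb2 lay within the HZ range. ssc-miR-127, the most abundant member, had 132, 81.9 and 95.5 TPM in Hb and 265, 92.8 and 252 TPM in Lb (0.68, adjusted p = 0.292). Besides miR-409-y, the largest differences at 10 TPM or more were those of ssc-miR-758 (6.06, 0.981 and 1.42 against 16.9, 5.77 and 16.2 TPM, 2.07, adjusted p = 0.0622) and miR-494-y (9.70, 0.763 and 4.25 against 25.9, 10.9 and 22.8 TPM, 1.94, adjusted p = 0.0674). ssc-miR-370 (1.24), miR-154-z (1.25), miR-380-y (1.13) and miR-409-x (1.11) were also called, each with an adjusted p above 0.1. Of the 17, miR-409-y alone passed adjustment. Without Hb2 8 members were called higher, and without Hb3 9. At 30 days the cluster had a median of −0.51, with 7 of 62 members called lower in LC and none higher.

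The miR-424/miR-322/miR-503/miR-450/miR-542 cluster on the X chromosome, known to restrain cell cycle genes, had calls only toward LC. Its sum was 3791, 2077 and 3561 TPM in Hb and 6603, 6196 and 7231 TPM in Lb. All 11 members at 10 TPM or more had positive log2 fold changes, and 4 of 20 tested were called higher and none lower (median 0.72). A p under 0.05 at any fold was reached by 11 members, all higher in LC, and scaled by library size alone 11 were called higher. ssc-miR-450b-5p, the most abundant, had 1122, 668 and 1069 TPM in Hb and 2209, 2099 and 2492 TPM in Lb (0.96, SE 0.25, adjusted p = 0.0539). ssc-miR-450c-3p was called at 7.004, 4.14 and 5.02 against 14.9, 12.1 and 14.96 TPM (1.08, adjusted p = 0.0881). None passed adjustment. The median at 30 days was −0.29.

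**Figure D4:**
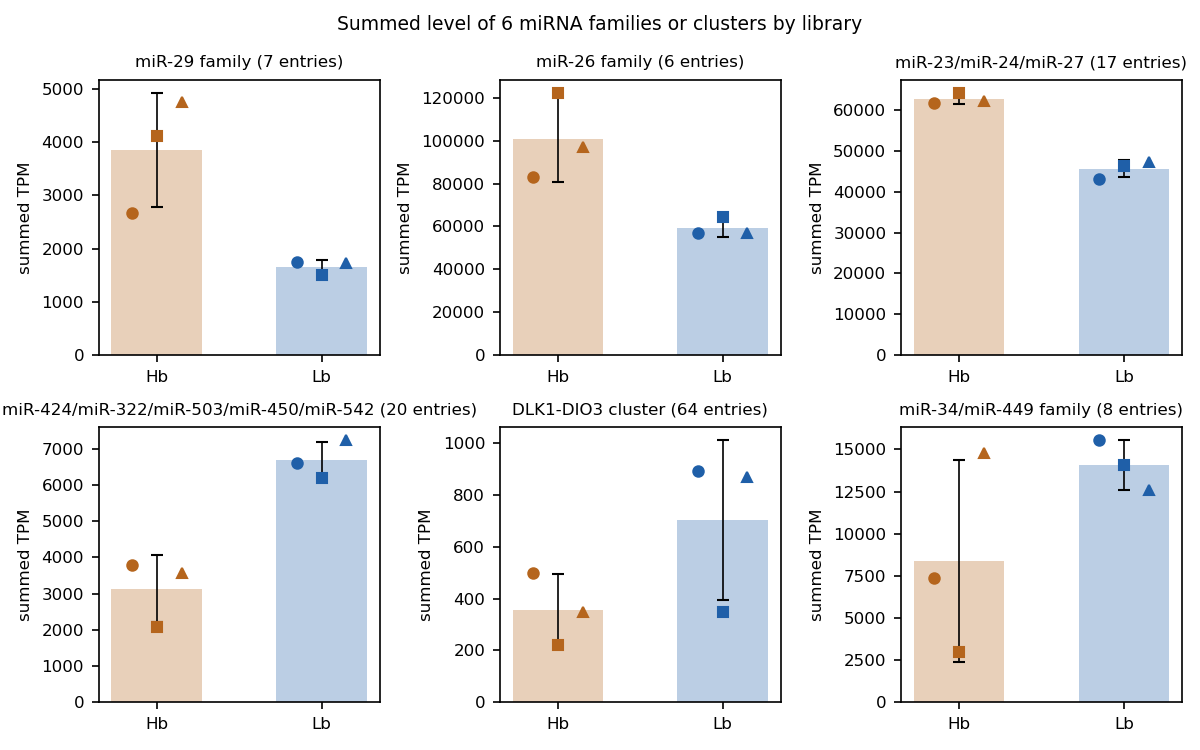
Summed TPM of 6 groups of miRNAs in Hb and Lb; bars are means, error bars SD and points the 3 libraries of each group. Lb lies under Hb for miR-29, miR-26 and miR-23/miR-24/miR-27 and over it for miR-424/miR-322/miR-503/miR-450/miR-542, while the groups overlap for the DLK1-DIO3 cluster and miR-34/miR-449. The TPM carry no TMM scaling.

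Among miRNAs of germ cells and the gonad, the miR-34/miR-449 family showed the widest spread in HZ. ssc-miR-34c had 1218, 1732 and 11014 TPM in Hb and 11634, 10627 and 9329.5 TPM in Lb. Hb3 was at the LC level and Hb1 and Hb2 far under it. The log2 fold change was 0.89 (SE 0.60, adjusted p = 0.415), and 2.37 without Hb3. ssc-miR-34a was the 1 member of 8 called higher (4.31, 0.872 and 5.53 against 12.8, 11.5 and 8.28 TPM, 1.43, adjusted p = 0.0926), and none was lower. The family median of −0.09 changed sign with library-size scaling (0.08). At 30 days 3 of 7 members were called lower in LC. No member of the miR-202 group passed the rule (0 of 5, median 0.44). ssc-miR-202-5p had 16604, 9077 and 15627 TPM in Hb and 22764, 16807 and 20641 TPM in Lb (0.27, adjusted p = 0.588). The defining miRNAs of testis, miR-34c and miR-202, were thus present in all 6 libraries. The miR-506 family of the X chromosome had no call among 23 members in edgeR and 1 lower by DESeq2, with 2 at a p under 0.05. Its most abundant entry, miR-508-y, had 24966, 21777 and 37108 TPM in Hb and 39602, 32583 and 46608 TPM in Lb (0.17), and at 30 days 10 of the 23 were called lower in LC. Of the spermatogonial miR-21, miR-221 and miR-222 group, 2 of 14 were called higher and 4 lower. ssc-miR-21-3p (105, 22.4 and 60.6 against 147, 156 and 147 TPM, 1.11) and miR-21-x (1.01) were higher, and miR-222-y was lower (18.6, 48.5 and 33.1 against 16.2, 16.2 and 9.35 TPM, −1.79, adjusted p = 0.0674). None of these 6 calls held without Hb2. In the miR-17-92 cluster and its paralogues, which promote proliferation, 2 of 38 were called higher (median 0.19). The call at 10 TPM or more was miR-93-y (16.7, 1.42 and 11.3 against 30.4, 28.9 and 28.9 TPM, 1.49, adjusted p = 0.095).

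Most abundant families that regulate growth and differentiation gave few calls, though the miR-193/miR-365 and miR-101/miR-148/miR-152 groups below gave more. The let-7/miR-98 family had 0 higher and 1 lower of 16 (median 0.04), and ssc-let-7a had 40805.5, 27559 and 31483 TPM in Hb and 41062, 41757 and 41694 TPM in Lb. The miR-30 family had no call among 13 (median −0.12; 3 at a p under 0.05, 0 by DESeq2), the miR-181 family none among 7 (0.02; 1 and 0), the miR-99/miR-100/miR-125 family none among 18 (0.01; 1 at a p under 0.05, 1 lower by DESeq2) and the miR-132/miR-212 cluster none among 6 (−0.24; 0 and 0). ssc-miR-99a-5p, the most abundant miRNA in Hb2, had 77318, 145668 and 76247 TPM in Hb and 75140, 83231 and 79820 TPM in Lb (log2 fold change −0.84, adjusted p = 0.29, and a log2 fold change of 0.015 without Hb2). ssc-miR-10b had 45094, 48091 and 34249 TPM in Hb and 36417, 54643 and 34440 TPM in Lb (log2 fold change −0.43, and 0.067 without Hb2), and its HOX-linked miR-10/miR-196/miR-615 group had 1 of 11 lower (median −0.14). The miR-15/miR-16/miR-195/miR-497 family had 1 higher, miR-15-y (48.6, 5.45 and 18.5 against 105.8, 63.0 and 55.8 TPM, 1.54), and 1 lower, miR-16-x (−1.64), of 14 (median −0.02). In the miR-101/miR-148/miR-152 group 1 of 15, miR-148-z, was higher (1.24) and 4 were lower, among them miR-101-x (−1.30), with a median of −0.16. The miR-199/miR-214 group had 2 of 12 higher, those described above (median −0.05). The miR-193/miR-365 clusters had 3 of 8 higher and none lower (median 0.67), and the most abundant member, miR-193-y, had a log2 fold change of 0.40. The miR-183/miR-96/miR-182 cluster had 1 of 9 lower (median −0.23), the imprinted-locus group of miR-335, miR-483, miR-675, miR-296 and miR-298 had 1 of 10 higher (median 0.44), and the embryonic miR-302/miR-371 family had no call among 2 (−0.61; 0 at a p under 0.05 and 0 by DESeq2), with a sum of at most 0.549 TPM in any library. The medians of the miR-30, miR-10, miR-15, miR-101, miR-199, miR-183 and miR-506 groups were positive under library-size scaling, so no direction is given for them.

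Markers of other cells of the tissue did not move in a single direction. Of 17 miRNAs of striated muscle 3 were called higher and 1 lower (sums 499.1 to 836 TPM in Hb and 839 to 946 in Lb). Of 15 epithelial miRNAs 2 were higher (328 to 1049 against 672 to 932 TPM). Of 12 leukocyte miRNAs none was called in edgeR or DESeq2, with 1 at a p under 0.05 (437 to 893 against 776 to 1202 TPM, median 0.75). Of 10 erythroid miRNAs none was called by either tool, with 3 at a p under 0.05 (863 to 2298 against 1220 to 1272 TPM, median −0.13). ssc-miR-451, the defining erythroid miRNA, was highest in Hb1 at 1131 TPM, against 380 and 383 TPM in Hb2 and Hb3 and 514 to 607 TPM in Lb. Of 4 endothelial miR-126 entries 1 was lower, miR-126-y (228, 285 and 296 against 101, 148 and 123 TPM, −1.53, adjusted p = 0.0322, and 0.057 without Hb2, 0.150 without Hb3 and 0.147 without Lb1), while ssc-miR-126-3p had 6248, 6469 and 5566 TPM in Hb and 4439, 6121 and 4464 TPM in Lb (−0.68, adjusted p = 0.239). Of 25 miRNAs known from brain 3 were higher, among them ssc-miR-137 and ssc-miR-129a-3p (22.4, 0.436 and 2.06 against 71.7, 53.3 and 21.4 TPM, 2.57, adjusted p = 0.0881), and 1 was lower, ssc-miR-153 (26.0, 13.96 and 22.9 against 11.5, 8.81 and 10.7 TPM, −1.29, adjusted p = 0.0427, and 0.0818 to 0.159 without Hb3, Lb1, Lb2 or Lb3). The part of these cells in the other differences was not tested.

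The breeds were also compared at 30 days, with none of the libraries used at 120 days, to ask which differences were present at both ages. At 30 days 121 of 1278 miRNAs (9.47%) were called, 48 (3.76%) higher and 73 (5.71%) lower in LC, and 67 (5.24%) after adjustment. Higher in LC at both ages were 10 miRNAs (8.20% of the 122 at 120 days and 20.8% of the 48 at 30 days), and lower at both were 14 (11.6% of 121 and 19.2% of 73). Of the 122 and 121, 116 and 95 were tested at 30 days. Called in the opposite direction at 30 days were 4 of the 122 and 4 of the 121. After adjustment at both ages, 2 were higher, ssc-miR-4331-5p and ssc-miR-7135-5p, and 6 were lower, ssc-miR-31, miR-31-x, miR-384-y, miR-2137-z, m0021-3p and m0093-3p. Among those past adjustment at both ages, miR-409-y and ssc-miR-1249 changed sides. ssc-miR-1249 was lower in LC at 30 days (log2 fold change −1.34, adjusted p = 0.0263) and higher at 120 days, and miR-409-y likewise (−1.12, adjusted p = 0.00294).

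Whether the breed difference itself changed with age was tested by the interaction over all 12 libraries. It passed adjustment for 20 of 1452 miRNAs (1.38%), 11 above 0 (0.758%), where the LC over HZ ratio was larger at 120 days, and 9 under 0 (0.62%). Of the 11, m0252-5p, m0253-5p and m0254-5p had the same values in every library and so add no more than 1 measurement. They stayed under 1 TPM with no count in La, and their log2 fold change at 120 days was 0.15 (interaction 6.14). Under 0 were ssc-miR-29a-3p (−1.73, adjusted p = 0.0377), the 1 of 7 miR-29 members to pass, ssc-miR-101 (−1.32) and m0021-3p (−2.52). For ssc-miR-29b, ssc-miR-29c and miR-29-y the interaction was −1.13 (adjusted p = 0.0924), −1.45 (adjusted p = 0.0782) and −2.25 (adjusted p = 0.0686). Above 0 were ssc-miR-137 (1.80), ssc-miR-1249 (3.77), ssc-miR-450b-5p (1.31) with the related ssc-miR-450c-5p (1.15) and ssc-miR-450a (0.99), and miR-409-y (3.37) and miR-380-y (1.91) of the DLK1-DIO3 cluster. For ssc-miR-31 the interaction was −0.10 and did not pass. The count moved from 20 to 0 without La3 or Lb1 and with library-size scaling, where 256, 249 and 306 miRNAs had an unadjusted p under 0.05 by edgeR, and to 168 without Hb1. It was 5 or fewer without Ha1, Ha2, La1, La2 or Lb3, 12 without Hb3, 34 without Lb2, and 121 by DESeq2.

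**Figure D5:**
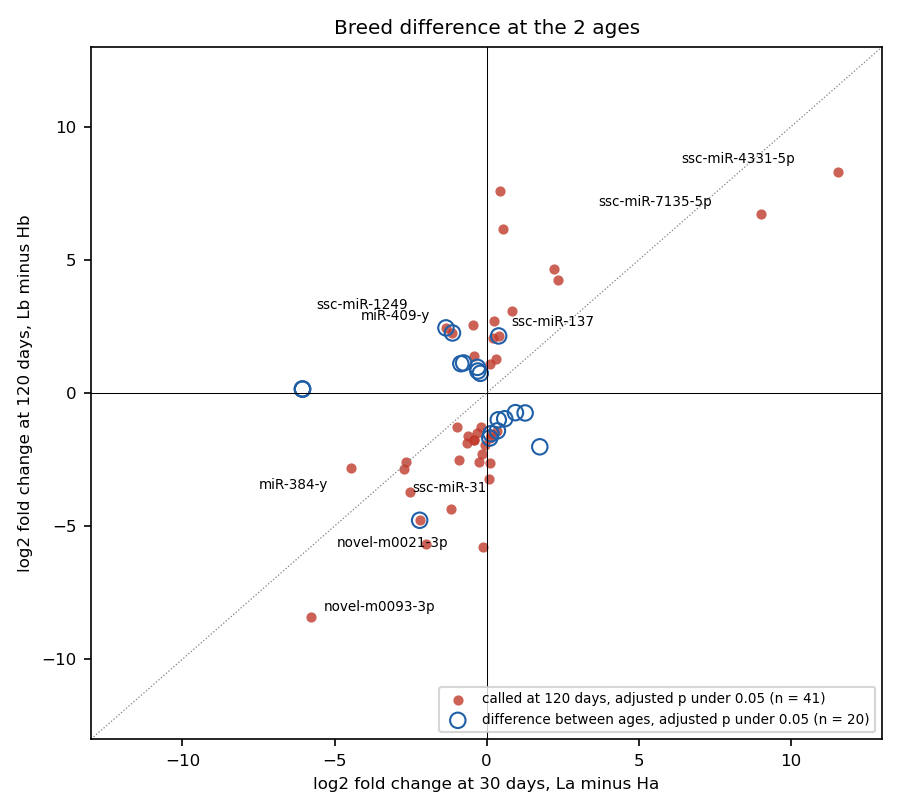
Log2 fold change, LC over HZ, at 30 days (horizontal) and 120 days (vertical) for the miRNAs past adjustment at 120 days that were also tested at 30 days (41) and for those with an adjusted interaction (20). ssc-miR-31 and miR-2137-z lie near the diagonal, ssc-miR-4331-5p lies far out at top right, and miR-409-y and ssc-miR-1249 lie on opposite sides of 0 at the 2 ages.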

How the data were processed

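Testis small RNA of 3 libraries per breed and age was sequenced on an Illumina HiSeq instrument. The authors filtered reads with fastp 0.18.0, removed tags of other non-coding RNAs, exons, introns and repeats, and assigned the rest with bowtie, miRBase 22.1 and miRDeep2 on Sscrofa11.1. They deposited a count and a TPM value (count scaled to a fixed library total, a count of 0 written as 0.01) per mature miRNA and library, and for predicted miRNAs the hairpin position, a deposited GC percent and a deposited miRDeep2 score. The listed counts summed to 86.9% to 89.1% of the totals behind the TPM.

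Counts were compared in R 4.3.3 with edgeR 4.0.16 (TMM scaling, glmQLFit and glmQLFTest, not robust) over miRNAs with at least 1 count in the 6 libraries, as Lb over Hb. A call is an absolute log2 fold change above 1 with an unadjusted p under 0.05, the study's threshold; the adjusted call uses the Benjamini-Hochberg p over all miRNAs tested. The interaction, (Lb − Hb) − (La − Ha), was fitted over 12 libraries. All per-library columns were used. Named were up to 12 miRNAs per direction with the largest adjusted fold change at 10 TPM or more in Hb or Lb, for each of 30 lists the most abundant member and those called at that level, the 5 most abundant, up to 5 interactions per direction, neighbours within 10 kb and entries with a shared seed; any other is named for a stated comparison after its values were seen. Members and lists were chosen with earlier results of these data known. Alternatives were RLE or library-size scaling, DESeq2 1.42.0, filterByExpr or no filter, robust estimation, all 12 libraries in 1 fit, identical sequences merged, a block for the replicate number, the ratio of mean TPM, each library left out and, chosen after seeing the data, removal of each library's GC trend. The ratio of mean TPM replaced the fold change alone, and its calls kept the p-values of the main fit. The code was tested on simulated counts. Hairpin positions are as deposited; other positions are RefSeq miRNA genes of Sscrofa11.1. Intervals and floors cover counting error only.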

Additional observations from a re-analysis of the deposited data

Results flagged for a closer look

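For 13 miRNAs with at least 10 TPM in some group the breed difference at 120 days differed from that at 30 days by the interaction test of edgeR (adjusted p under 0.05, 12 libraries). Values are log2 interactions, positive where the LC over HZ ratio was larger at 120 days. Of the miRNAs with a positive value, ssc-miR-1249 had 3.77 (adjusted p = 0.0377), miR-409-y 3.37 (0.0324), miR-216-x 1.97 (0.0355), miR-380-y 1.91 (0.0476), ssc-miR-137 1.80 (0.0355) and ssc-miR-450b-5p 1.31 (0.0324). miR-216-x had 10.2, 3.93 and 9.14 TPM in Hb and 24.8, 15.8 and 17.98 TPM in Lb (log2 fold change 1.10), against −0.85 at 30 days. ssc-miR-450b-5p had group means of 3220 TPM in Ha, 2466 in La, 953 in Hb and 2267 in Lb.

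Of those with a negative value, m0021-3p had −2.52 (0.0145), miR-2478-z −1.97 (0.0145), ssc-miR-29a-3p −1.73 (0.0377), ssc-miR-628-3p −1.71 (0.0355), miR-11202-x −1.65 (0.0355), miR-126-y −1.59 (0.0476) and ssc-miR-101 −1.32 (0.0476). ssc-miR-628-3p had 73.3, 50.4 and 38.2 TPM in Hb and 21.9, 26.7 and 27.4 TPM in Lb (log2 fold change −1.42, adjusted p = 0.0392), against 0.36 at 30 days. Its adjusted p at 120 days was 0.0618 to 0.184 without Hb2, Hb3, Lb1 or Lb2. miR-2478-z had 1926, 1364 and 1555 TPM in Hb and 1183, 782 and 1633 TPM in Lb (−0.75), against 1.27 at 30 days, and miR-11202-x went from 0.95 at 30 days to −0.74. ssc-miR-29a-3p had means of 840 TPM in Ha, 846 in La, 3414 in Hb and 1415 in Lb. None of the 13 kept an adjusted p under 0.05 without La3, without Lb1 or with library-size scaling; miR-2478-z and m0021-3p kept it in all other alternatives.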

How the results depend on the processing

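The main counts were 122 called higher, 121 called lower, 16 and 31 after adjustment, and 20 interactions. With library-size scaling 75 were called lower, 5 and 4 passed adjustment (higher and lower), and 0 interactions. With filterByExpr 63 were called higher, 8 were adjusted higher and 63 interactions passed, over fewer miRNAs tested. DESeq2 gave 39 and 66 adjusted and 121 interactions, and 1 fit over all 12 libraries 64 and 74 adjusted. RLE scaling gave 36 interactions and removal of the GC trend 39. Leaving out single libraries gave 77 to 165 called higher, 97 to 140 lower, 4 to 62 adjusted higher, 8 to 86 adjusted lower and 0 to 168 interactions. The cause was not tested. Same-numbered libraries of Hb and Lb did not deviate together (r over 794 miRNAs 0.04, −0.05 and 0.07). With 3 libraries per group, such values cannot settle whether the numbers pair them. With the replicate block 127 and 111 were called, 65 and 68 adjusted and 20 interactions. With the block and the GC trend removed, 60 and 66 were adjusted. Not every library correlated best with its own number. Among the 89 named miRNAs, no called direction reversed. Of 1600 alternative fold changes of the 89 named miRNAs, 1451 kept their direction and side of the threshold, 69 lost the call, 34 gained it and 46 took the other sign, and 103 of 234 interactions lost it. With 3 libraries per breed and a coefficient of variation of 39.7% in Hb, differences near the threshold of 1 log2 unit are not resolved.

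The 46 values with the other sign belong to 13 miRNAs, none of them called before or after, and the cause was not tested. With library-size scaling and with the ratio of mean TPM, respectively, log2 fold changes were 0.32 and 0.30 for ssc-miR-199b-3p, 0.30 and 0.29 for ssc-miR-1, 0.21 and 0.20 for ssc-miR-16, 0.18 and 0.17 for ssc-miR-148a-3p, 0.16 and 0.15 for ssc-miR-182, 0.075 and 0.065 for m0018-3p, 0.061 and 0.049 for ssc-miR-128, and 0.024 and 0.014 for miR-203-y. With the GC trend removed, alone and with the replicate block, they were 0.051 and 0.050 for ssc-miR-16, 0.053 and 0.087 for ssc-miR-1, 0.041 and 0.069 for ssc-miR-199b-3p and −0.033 and −0.020 for ssc-miR-296-3p. ssc-let-7a had −0.048 with RLE scaling, with DESeq2 and with filterByExpr, and −0.015 with identical sequences merged, and ssc-miR-1 had 0.0050 in the fit over all 12 libraries. With single libraries left out, the range was −0.063 to 0.18 for ssc-let-7a, −0.67 to 0.067 for ssc-miR-10b, −1.16 to 0.015 for ssc-miR-99a-5p, −0.12 to 0.058 for ssc-miR-16, −0.45 to 0.21 for ssc-miR-148a-3p, −0.058 to 0.40 for miR-508-y, −0.27 to 0.12 for ssc-miR-1, −0.26 to 0.043 for ssc-miR-128, −0.23 to 0.29 for ssc-miR-199b-3p and −0.34 to 0.091 for m0018-3p.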

Other observations

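Several entries called lower in LC were forms of a pig miRNA with a different 3′ end, a pattern noticed after the values were seen and given as a description. Among entries of at least 1 TPM matched to other species, 142 shared at least 17 leading bases with a pig miRBase entry. Of these, 50 ended beyond the shared bases in A alone, and 14 of the 50 were called lower and 2 higher. Of the 73 with any other ending, 2 were called lower and 7 higher, and of the 19 ending in T alone, 1 and 3. The share of the A-ending form, as a percentage of the form and its pig entry together, had a median of 1.78, 2.49 and 2.51% in Hb1, Hb2 and Hb3 and of 1.89, 1.92 and 1.82% in Lb. Without overlap between the breeds, the share was lower in LC for 13 of the 50 A-ending forms and higher for 5, lower for 2 and higher for 3 of the 19 T-ending forms, and lower for 5 and higher for 15 of the 73 others.

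The widest example was miR-222-y, whose share beside ssc-miR-222 was 1.88, 22.5 and 17.98% in Hb and 2.07, 1.63 and 2.29% in Lb. For miR-29-y beside ssc-miR-29c it was 10.5, 20.4 and 18.4% in Hb and 7.78, 10.1 and 7.80% in Lb. For miR-16-x beside ssc-miR-16 it was 0.54, 2.46 and 1.21% in Hb and 0.39, 0.48 and 0.52% in Lb. In these 3 examples Hb2 had the highest share.

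Some calls rested on a single library. m0056-3p had 84.0 TPM (944 counts) in Lb3, 2 counts in Lb1 and none in the other 4 libraries, and was called higher (adjusted p = 0.0878 in edgeR). miR-3085-y had 9.70 TPM (72 counts) in Hb1 and was called lower (log2 fold change −3.88, adjusted p = 0.104 in edgeR).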
